A study of Mus musculus with 23 samples.

Results

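Expression of 8 core pluripotency genes, Pou5f1, Klf2, Klf4, Nr5a2, Fgf4, Zfp42, Utf1 and Esrrb, was followed in mouse embryonic stem (ES) cells that received an activating form of serum response factor. The members were chosen by name, and every probe set annotated to 1 of these symbols was taken: 9 probe sets for 8 of the 8131 named genes on the array, with a pair of probe sets for Nr5a2. All 9 passed the filter on dim signals. Total RNA was hybridised to 23 oligonucleotide arrays. The 4 lines were wild-type E14, E99 (labelled +/-), E81 (labelled -/-) and E100 (labelled -/-), and each was transfected with vector alone, with SRFdM-VP16 as the control plasmid or with SRF-VP16, with RNA taken 72 hours later. That gives 12 groups of line and plasmid with 2 arrays each, except E100 with vector, which has 1. Which gene +/- and -/- refer to, the share of cells that took up plasmid, and whether a line is 1 clone are not in the labels. Nothing says that duplicates were separate cultures either, so the p-values cover only the spread between these arrays, which may be technical.

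SRF is a transcription factor that binds CArG boxes of cytoskeletal, muscle and immediate-early genes, and VP16 is a strong viral activation domain. Mouse ES cells self-renew while a network of transcription factors built around Pou5f1 (Oct4), Sox2 and Nanog is active. Klf2, Klf4, Esrrb and Nr5a2 belong to the part of that network that holds the naive state and can partly stand in for each other, Zfp42 (Rex1) and Utf1 are widely used markers of undifferentiated cells, and Fgf4 is the growth factor through which ES cells signal to themselves toward lineage commitment. Loss of these transcripts accompanies exit from self-renewal.

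All values are the deposited linear intensities, some of which are below 0, and how they were computed is not stated. A gene with more than 1 probe set is given by its brightest. For the tests, intensities under a floor of 58 were set to 58 and put on the log2 scale, and changes are log2 changes ± SE from 1 limma fit over all 23 arrays, called at a Benjamini-Hochberg adjusted p under 0.05 over 9643 probe sets. The median intensity of an array lay between 54 and 209, and precision is limited by how few arrays there were. Of the 9 ES cell markers listed, which include the members Pou5f1, Zfp42, Utf1 and Fgf4, 0 lay at or under the floor on every array. E81 with SRFdM-VP16 replicate 1 had the lowest median, 43.6% of its values at or below 0, and a Gapdh 5' over 3' ratio of -0.93 (log2), a measure of how intact the RNA was, against -0.36 to 0.47 on the other arrays. The wild-type control arrays numbered 2 carried the smooth-muscle transcript Tagln at 9417 (vector) and 11738 (SRFdM-VP16), where replicate 1 had 264 and 591. Several of the results that these 3 arrays touch are given with and without them, and the others with all arrays only.

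The 250 bases upstream of the annotated start were read for each gene from RefSeq (GRCm38.p6), which held all 8. Shown here are the promoters of the 3 genes that were called lower in the -/- lines, Klf2, Nr5a2 and Fgf4, and that of Zfp42, which was not. Capitals mark every match, on either strand, to a GC box (GGGCGG), to a CACCC box (spelled as its name) or to the octamer that Pou5f1 binds (ATGCAAAT). The CArG box and an extended nuclear receptor half-site (AAGGTCA, not its shorter core AGGTCA) were searched in the same way. Adjoining matches may share a base.
Klf2, chr8:72318812-72319061, plus strand: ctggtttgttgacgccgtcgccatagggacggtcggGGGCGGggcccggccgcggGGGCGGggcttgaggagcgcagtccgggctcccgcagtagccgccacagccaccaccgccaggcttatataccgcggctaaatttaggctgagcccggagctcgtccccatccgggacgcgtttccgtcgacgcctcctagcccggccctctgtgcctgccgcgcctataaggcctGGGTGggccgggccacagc
Nr5a2, chr1:136960449-136960698, minus strand: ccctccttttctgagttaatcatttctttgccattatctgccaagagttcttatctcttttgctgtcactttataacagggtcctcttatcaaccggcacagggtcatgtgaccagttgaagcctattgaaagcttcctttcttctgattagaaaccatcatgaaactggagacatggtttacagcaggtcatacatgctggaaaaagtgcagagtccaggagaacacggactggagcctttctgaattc
Fgf4, chr7:144861136-144861385, plus strand: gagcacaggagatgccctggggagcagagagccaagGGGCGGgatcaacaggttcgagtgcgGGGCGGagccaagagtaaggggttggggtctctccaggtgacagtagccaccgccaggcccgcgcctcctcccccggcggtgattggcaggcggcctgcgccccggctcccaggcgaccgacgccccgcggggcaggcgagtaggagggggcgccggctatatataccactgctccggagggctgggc
Zfp42, chr8:43307010-43307259, minus strand: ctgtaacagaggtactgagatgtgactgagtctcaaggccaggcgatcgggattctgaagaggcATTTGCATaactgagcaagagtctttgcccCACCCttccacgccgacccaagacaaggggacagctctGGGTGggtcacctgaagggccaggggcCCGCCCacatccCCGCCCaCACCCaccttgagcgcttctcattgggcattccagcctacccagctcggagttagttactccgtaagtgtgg
Klf2 and Fgf4 were both GC-rich (71.2%) and held 2 GC boxes each, whereas Nr5a2 (43.2% GC) held no match to any motif searched. A GC box was present in 6 of the 8 members and in 26.8% of 19827 promoters of the same length. A CACCC box, the kind of sequence that Klf factors recognise, was present in 4 of 8 (48.9% of all promoters). The octamer was present only in Zfp42, at positions -186 to -179 from the start (1.80% of all promoters). Neither the CArG box (1.48% of all promoters) nor the extended half-site (4.30%) was found in any of the 8, which says only that these letters are not in this window. The shorter core AGGTCA does occur in the Nr5a2 and Pou5f1 sequences and was not counted.

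In the -/- lines, SRF-VP16 was compared with SRFdM-VP16 over 4 arrays each to ask which pluripotency genes respond to the activated factor. Klf2, Nr5a2 and Fgf4 were lower, and the other 5 members did not pass the test. The 3 called lower of 8 stand against 0.342% of all probe sets called lower, and 0 were called higher, against 2.48% called higher. The change was negative for all 8 members, with a median of -0.78 against 0.04 over all probe sets. An unadjusted p under 0.05 was reached by 5 of 8, and by 386 lower and 908 higher of all 9643 probe sets. In bulk RNA, fewer ES cells and less transcript per cell cannot be told apart.

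Klf2 encodes a zinc-finger factor of the naive network. With SRF-VP16 it read 1241 and 591 in E81 and 442 and 1012 in E100. With SRFdM-VP16 it read 4304 and 4599 in E81 and 3132 and 4517 in E100, so that the arrays did not overlap and the lowest control array was above the highest SRF-VP16 array. The means were 822 ± 369 and 4138 ± 682 (SD, n = 4), and Klf2 fell by 2.43 ± 0.35 on the log2 scale, or 5.41-fold (95% interval of the log2 change -3.19 to -1.67, adjusted p = 0.0020 by limma). Both lines gave nearly the same size of change, -2.38 ± 0.50 in E81 (adjusted p = 0.0429) and -2.49 ± 0.50 in E100 (adjusted p = 0.0263). With vector as the control the fall was 2.25 on the log2 scale (adjusted p = 0.00897; 0.00060 to 0.0776 over the alternatives), and without E81 SRFdM-VP16 replicate 1 it was 2.46 (adjusted p = 0.00916).

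Nr5a2 encodes an orphan nuclear receptor that binds regulatory sequence of Pou5f1. Its brighter probe set read 1048 and 704 in E81 and 679 and 384 in E100 with SRF-VP16, against 1350 and 1472 in E81 and 2196 and 1394 in E100 with SRFdM-VP16. The arrays again did not overlap. Nr5a2 fell by 1.25 ± 0.27 on the log2 scale, or 2.37-fold, from 1603 ± 398.5 to 704 ± 272 (SD, n = 4, adjusted p = 0.0215 by limma). The dimmer probe set gave -0.86 ± 0.39 (adjusted p = 0.357) and had 2 of 23 arrays at or under the floor. The call was lost without E81 SRFdM-VP16 replicate 1, E81 SRF-VP16 replicate 2, E100 SRFdM-VP16 replicate 1 or E100 SRF-VP16 replicate 2 (changes of -1.28 to -1.04, adjusted p = 0.0539 to 0.0965) and with vector as the control (-1.13, adjusted p = 0.0627; 0.00432 to 0.357 over the alternatives).

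Fgf4, the autocrine growth factor, read 5190 and 5720 in E81 and 3412 and 2771 in E100 with SRF-VP16. With SRFdM-VP16 it read 7959 and 10196 in E81 and 6929 and 12031 in E100, above every SRF-VP16 array. It fell by 1.15 ± 0.22 on the log2 scale, or 2.22-fold, from 9279 ± 2286 to 4273 ± 1406 (SD, n = 4, adjusted p = 0.0117 by limma). These 3 genes were the members whose -/- arrays did not overlap between the plasmids, a pattern that 1.13% of all probe sets showed in this direction. Without E81 SRFdM-VP16 replicate 1 Fgf4 was at -1.24 (adjusted p = 0.0255). Its call was lost without E100 SRFdM-VP16 replicate 2 (-0.95, adjusted p = 0.0555) and with vector as the control (-0.76, adjusted p = 0.128; 0.00230 to 0.128 over the alternatives); the vector array of E100 read 5818.

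**Figure D1:**
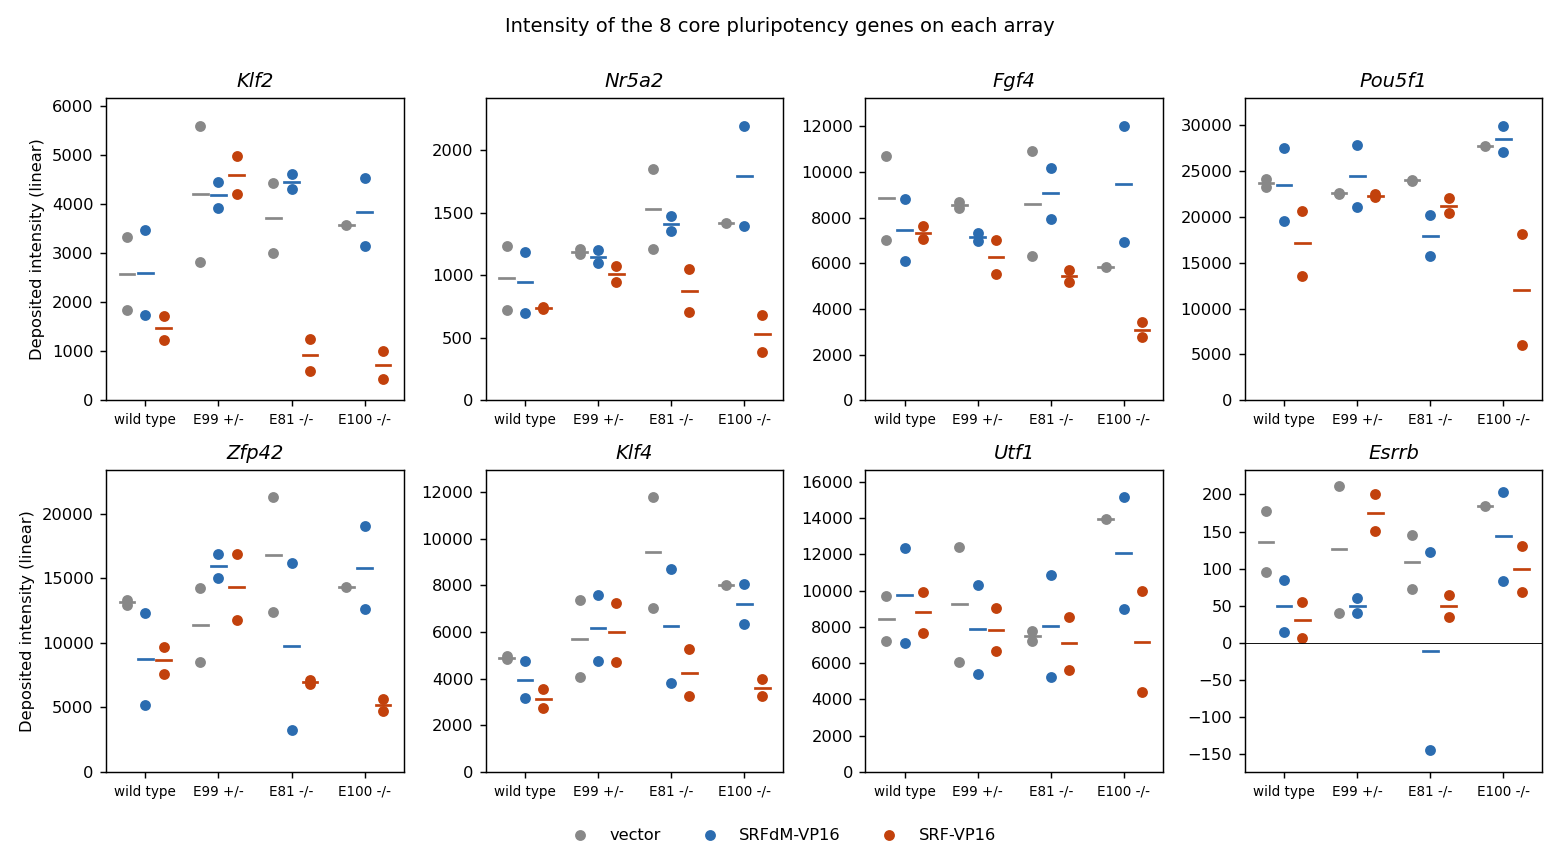
Deposited intensity (linear, 1 axis per gene) of the 8 members on each of 23 arrays, by line; points are arrays, short lines are group means and colours are plasmids. Klf2 with SRF-VP16 lies between 442 and 1241 in E81 and E100, and between 4198 and 4976 in E99.

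Pou5f1, Zfp42, Klf4, Utf1 and Esrrb did not pass in the -/- lines. Pou5f1, the central ES cell factor, gave -0.60 ± 0.27 (adjusted p = 0.343 by limma), Klf4 -0.73 ± 0.31 (0.306), Zfp42 -0.83 ± 0.42 (0.427), and Utf1 -0.47 ± 0.36 (0.652). Their 95% intervals, -1.18 to -0.02 for Pou5f1, -1.40 to -0.07 for Klf4, -1.72 to 0.07 for Zfp42 and -1.24 to 0.30 for Utf1, leave room for falls of the size of the Fgf4 change. Esrrb, an orphan nuclear receptor of the naive network, ran from -145 to 212 over all arrays and was above the floor on 16 of 23, so its change of -0.47 ± 0.44 (adjusted p = 0.732) has little signal behind it. Without E81 SRFdM-VP16 replicate 1, where Zfp42 read 3277 against 16173 on its duplicate, Zfp42 gave -1.40 and passed (adjusted p = 0.0393; 0.0285 to 0.768 over the alternatives). Without that array Klf4 was at -1.03 and Utf1 at -0.21, neither of them called. Division of each array by its median shifts the -/- comparison by -0.38 on the log2 scale for a gene above the floor. The move of the Klf4 change from -0.73 in that setting is this shift alone. Klf4 passed when each array was divided by its median (-1.12, adjusted p = 0.0479; 0.0479 to 0.566 over the alternatives), and Pou5f1 without E100 SRF-VP16 replicate 1 (adjusted p = 0.0104; 0.0104 to 0.738).

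**Figure D2:**
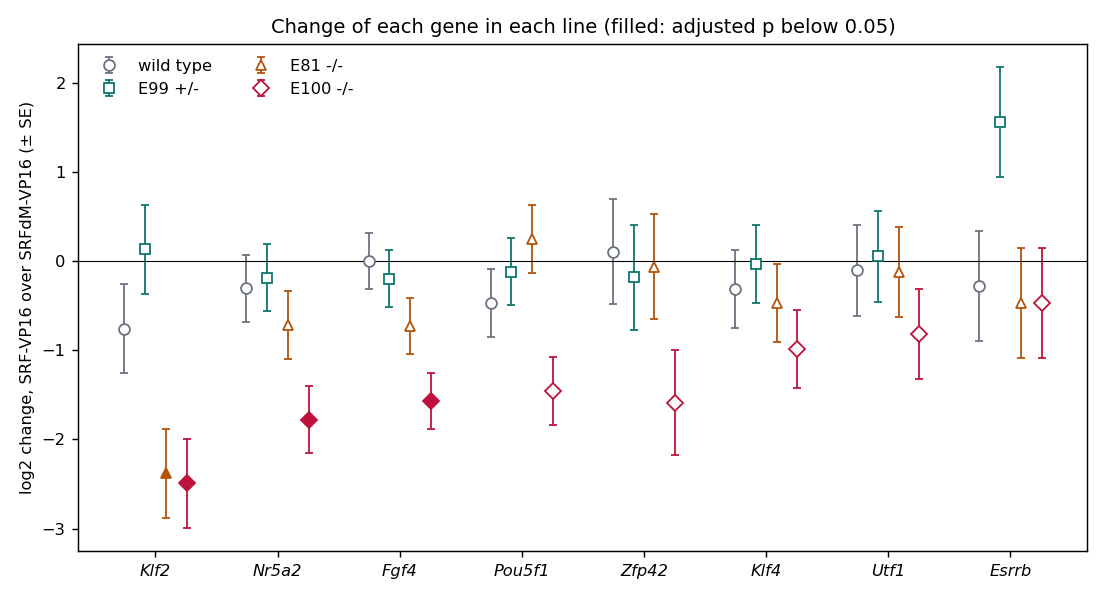
Log2 change ± SE of each member between SRF-VP16 and SRFdM-VP16 in each line (2 arrays against 2), from the fit over all arrays; filled symbols have an adjusted p under 0.05. Klf2 is near -2.4 in both -/- lines, and the other filled symbols are Nr5a2 and Fgf4 in E100.

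E81 and E100 were also taken separately. In E81, 1 of 8 members, Klf2, was called lower (0.0622% of all probe sets), and the median of the members was -0.47 against 0.25 over all probe sets. Nr5a2 (-0.71 ± 0.38, adjusted p = 0.431 by limma) and Fgf4 (-0.73 ± 0.32, adjusted p = 0.337) did not pass there. For both of them and for Klf2, both SRF-VP16 arrays lay below both SRFdM-VP16 arrays, as for 6.88% of all probe sets. Pou5f1 read 22064 and 20405 with SRF-VP16 and 15730 and 20228 with SRFdM-VP16, so both SRF-VP16 arrays were above both control arrays, as for 31.9% of all probe sets. Its change of 0.25 ± 0.38 did not pass (adjusted p = 0.909). It was 0.07 without E81 SRFdM-VP16 replicate 1 and -0.59 when each array was divided by its median, which shifts the E81 comparison by -0.84. Zfp42 went from -0.07 to -1.22 and Utf1 from -0.12 to 0.40 without that same array, and neither passed. The Klf2 call in E81 was lost without any of 12 single arrays, 2 of them in the comparison: E81 SRF-VP16 replicate 2 (-1.84, adjusted p = 0.268) and E81 SRFdM-VP16 replicate 1 (-2.43, adjusted p = 0.186). The other 10, namely both vector arrays of E81, both SRFdM-VP16 and both SRF-VP16 arrays of E99, both SRFdM-VP16 arrays of E100 and both SRF-VP16 arrays of wild type, entered only through the shared spread and gave adjusted p = 0.0509 to 0.0683.

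In E100, 3 of 8 members were called lower (0.425% of all probe sets), again Klf2, Nr5a2 and Fgf4. All 3 calls ended when each array was divided by its median, at -2.41, -1.70 and -1.49 (adjusted p = 0.123, 0.131 and 0.130). Nr5a2 fell by 1.78 ± 0.38 on the log2 scale (3.43-fold, adjusted p = 0.0362 by limma) on its brighter probe set, while the dimmer gave -0.46 ± 0.55 (adjusted p = 0.817). Fgf4 fell by 1.57 ± 0.32 (2.97-fold, adjusted p = 0.0263). The median of the members was -1.51 against -0.14 over all probe sets. An unadjusted p under 0.05 was reached by 6 of 8, and by 789 lower and 450 higher of all 9643 probe sets. For 6 of 8 both SRF-VP16 arrays lay below both control arrays, as for 28.6% of all probe sets. Zfp42 read 4730 and 5629 with SRF-VP16 against 12592 and 19065, which gave -1.59 ± 0.59 (adjusted p = 0.261, not called). Klf4 read 3240 and 4000 against 6351 and 8063 (-0.99 ± 0.44, adjusted p = 0.364). Leaving out 1 array ended the Klf2 call in 3 cases (E100 SRFdM-VP16 replicate 1 or 2 and SRF-VP16 replicate 1, adjusted p = 0.0659 to 0.198), the Fgf4 call in 2 (replicate 2 of either plasmid, 0.141 to 0.254) and the Nr5a2 call in 9 (3 arrays of E100, both SRFdM-VP16 arrays and SRF-VP16 replicate 2, and all 6 arrays of E99, 0.0526 to 0.235). With vector as the control, where E100 has 1 array, 0 of 8 were called: Klf2 was at -2.42 (adjusted p = 0.100), Nr5a2 at -1.47 (0.222) and Fgf4 at -0.92 (0.397).

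Pou5f1 was the member on which the SRF-VP16 duplicates of E100 differed most. It read 18099 and 5994 with SRF-VP16 against 27106 and 29982 with SRFdM-VP16, a mean of 12046 ± 8560 against 28544 ± 2034 (SD, n = 2) and a change of -1.45 ± 0.38 (adjusted p = 0.0932 by limma). Without E100 SRF-VP16 replicate 1 the change was -2.25 and passed (adjusted p = 0.000908; 0.000908 to 0.580 over the alternatives), but that value rests on the single array at 5994. With all arrays it also passed after quantile normalization (-1.52, adjusted p = 0.0296), a setting in which Klf2 lost its call in E100 (-2.31, adjusted p = 0.0510). That array had a Gapdh 5' over 3' ratio of -0.18, against 0.17 on its duplicate; the part of RNA quality in the difference was not tested. Over the 15 arrays with vector or SRFdM-VP16, Pou5f1 ran along with this ratio (Pearson r = 0.849, Spearman rho = 0.727, a description over arrays that share lines), and r was 0.619 without the 2 arrays farthest from the median ratio. For Zfp42 r was 0.795 with all 15 and -0.06 without those 2, E81 SRFdM-VP16 replicate 1 and wild-type SRFdM-VP16 replicate 2, so it rests on them. For Utf1 it was 0.215 with all 15 and 0.769 without them. Among the 3 genes called lower, r was -0.02 for Klf2 (-0.22 without those 2), 0.263 for Nr5a2 (0.415) and 0.151 for Fgf4 (0.04). Over all 23 arrays Nr5a2 had r = 0.313 and rho = 0.478, and r was 0.639 without the 2 farthest arrays.

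**Figure D3:**
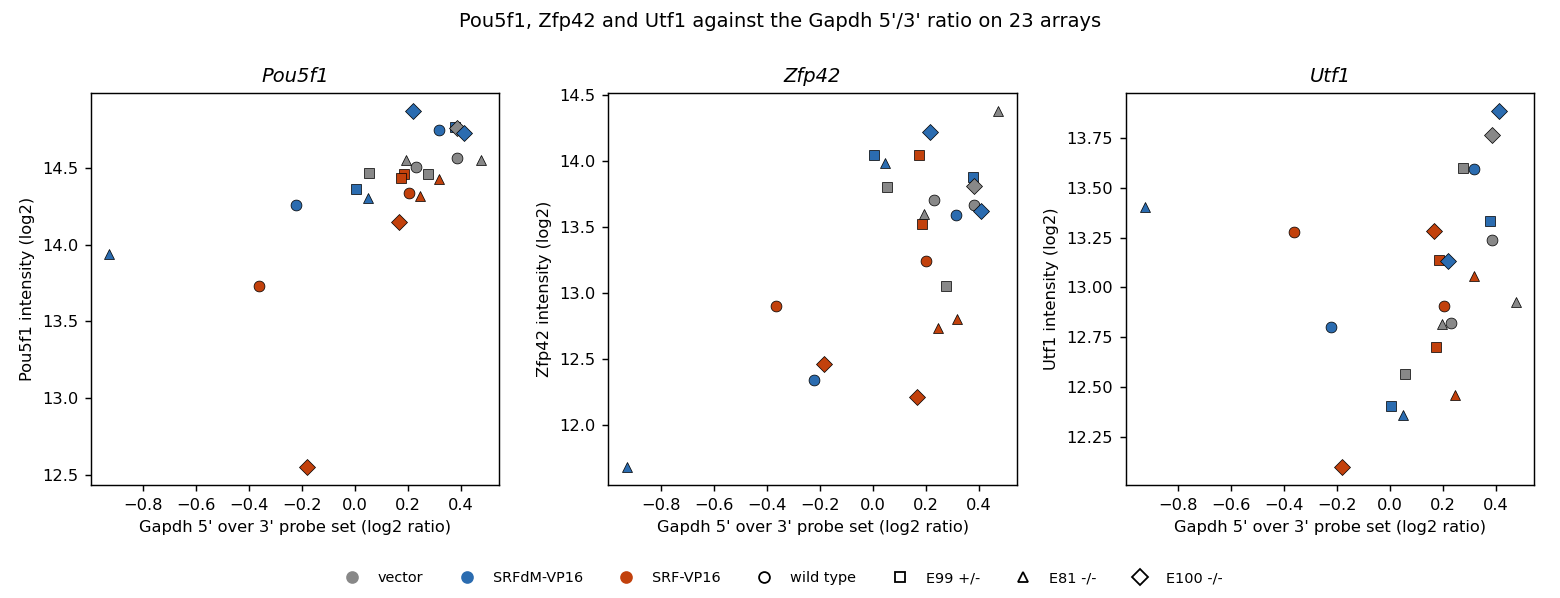
Log2 intensity of Pou5f1, Zfp42 and Utf1 against the Gapdh 5' over 3' log2 ratio on each of 23 arrays; colours are plasmids and shapes are lines. The array at -0.93 is E81 SRFdM-VP16 replicate 1, and the lowest Pou5f1 array is E100 SRF-VP16 replicate 2, at a ratio of -0.18.

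The difference between the -/- lines was tested directly. With limma, 0 of 8 members differed in their SRF-VP16 effect between E100 and E81 (0.145% of all probe sets called in either direction), and 1, Pou5f1, had an unadjusted p under 0.05 (-1.70 ± 0.54, adjusted p = 0.393). Of all 9643 probe sets, 910 reached that unadjusted p with a difference below 0 and 130 with a difference above 0. The difference was below 0 for all 8 members, with Esrrb at -0.01, but the median over all probe sets was also -0.52. The sign depended on the scaling and on single arrays. When each array was divided by its median 5 of 8 were above 0, namely Klf2 (0.81), Klf4 (0.41), Esrrb (0.34), Utf1 (0.23) and Fgf4 (0.08). Without E81 SRFdM-VP16 replicate 1 Klf4 (0.08) and Esrrb (0.49) were above 0. For Klf2 the difference between the lines was -0.11 ± 0.70 (95% interval -1.63 to 1.41), for Nr5a2 -1.06 ± 0.53 and for Fgf4 -0.84 ± 0.45. Pou5f1 passed without E100 SRF-VP16 replicate 1 (-2.50, adjusted p = 0.00610; 0.00610 to 0.994 over the alternatives), which leaves 1 array in that group. For Zfp42 the difference was -1.52 ± 0.83 with all arrays and turned on which E81 SRFdM-VP16 array was kept. It was -0.37 (adjusted p = 0.950) without replicate 1, the array with the low Gapdh ratio, and -2.67 (adjusted p = 0.0359; 0.0359 to 1.00 over the alternatives) with that array as the only control of E81.

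In wild type, limma called 0 of 8 members (0.0207% of all probe sets called in either direction), and 0 had an unadjusted p under 0.05. Klf2 read 1223 and 1709 with SRF-VP16 and 3463 and 1734 with SRFdM-VP16, so the arrays did not overlap, as for 8.44% of all probe sets in this direction, but the nearest were 1709 and 1734. Its change was -0.76 ± 0.50 (95% interval -1.84 to 0.31). Without the wild-type control arrays numbered 2 it was -1.26 (adjusted p = 0.968; 0.881 to 1.00 over the alternatives), and the other 7 ran from -0.71 (Pou5f1) to -0.27 (Fgf4), against -0.47 (Pou5f1) to 0.11 (Zfp42) with them. On the vector arrays Klf2 followed the same split, at 3316 in replicate 1 and 1835 in replicate 2, the array with Tagln at 9417. Nr5a2 was likewise at 1232 and 718 with vector and 1189 and 700 with SRFdM-VP16, which set replicate 2 beside the SRF-VP16 arrays at 744 and 731.

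In E99, limma called 0 of 8 (0.0415% of all probe sets called in either direction), and 1, Esrrb, had an unadjusted p under 0.05 (1.56 ± 0.62, adjusted p = 0.918), from 40 and 60 near the floor to 200 and 151. Of all 9643 probe sets, 379 were higher and 53 lower at that unadjusted p. Klf2 read 4976 and 4198 with SRF-VP16 against 4444 and 3917 with SRFdM-VP16, a change of 0.13 ± 0.50 (95% interval -0.94 to 1.21). The direct test of its difference from the -/- lines, given below, did not pass (adjusted p = 0.274 by limma). Fgf4 was at -0.20 ± 0.32 and Pou5f1 at -0.12 ± 0.38. Nr5a2 gave -0.19 ± 0.38 on its brighter probe set and 1.27 ± 0.55 on the dimmer, whose SRFdM-VP16 arrays read 41 and 140, so the probe sets disagreed in sign.

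The differences between genotypes were tested as interactions. Against wild type, limma called 0 of 8 members (0.083% of all probe sets called in either direction), and 2 had an unadjusted p under 0.05: Fgf4 (-1.15 ± 0.39, adjusted p = 0.646) and Klf2 (-1.67 ± 0.61, adjusted p = 0.749). Against E99, a comparison chosen after seeing the data, limma again called 0 of 8 (0.0726% of all), with 4 at an unadjusted p under 0.05. These were Klf2, the strongest at -2.57 ± 0.61 (adjusted p = 0.274), Fgf4, Nr5a2 and Esrrb, the last of them near background. Of all 9643 probe sets, 210 were lower and 303 higher at that unadjusted p against wild type. Against E99 these counts were 310 and 218. All 8 differences were negative in both comparisons, which share the -/- arrays. Against wild type this did not hold without the wild-type control arrays numbered 2, where Pou5f1 (0.11), Esrrb (0.11) and Utf1 (0.03) were above 0, Zfp42 went from -0.93 to -0.31, Klf2 to -1.17 and Fgf4 to -0.88. Esrrb was also above 0 when each array was divided by its median (0.09) and with vector as the control (0.30). A different response of these genes in the -/- lines is therefore not shown after correction over all probe sets.

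Over all 4 lines (8 arrays against 8), Klf2 alone was called lower, 1 of 8 members against 0.166% of all probe sets. It fell by 1.38 ± 0.25 on the log2 scale (adjusted p = 0.0118 by limma). Its SRF-VP16 arrays ran from 442 through a median of 1232 to 4976, and overlapped the SRFdM-VP16 arrays because of E99. An unadjusted p under 0.05 was reached by 4 of 8 members, and by 272 lower and 1022 higher of all 9643 probe sets. Fgf4 (-0.62 ± 0.16, adjusted p = 0.0633) and Nr5a2 (-0.75 ± 0.19, adjusted p = 0.0637) lay just short of the adjusted threshold. Without wild-type SRFdM-VP16 replicate 2 both passed, Fgf4 at -0.69 (adjusted p = 0.0471) and Nr5a2 at -0.84 (0.0386). Fgf4 also passed without E100 SRFdM-VP16 replicate 1 or either vector array of E81 (0.0371 to 0.0498), Nr5a2 without E100 SRF-VP16 replicate 1 (0.0417), and Pou5f1 without that same array (-0.65, adjusted p = 0.0173). Without E81 SRFdM-VP16 replicate 1 and the wild-type control arrays numbered 2 together, Zfp42 passed (-0.88, adjusted p = 0.0463; -0.43 and 0.604 with all arrays).

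No member passed a comparison between lines with the control plasmids. Between E100 and E81 limma called 0 of 8 (0.788% of all probe sets called in either direction) with 0 at an unadjusted p under 0.05. Zfp42 was at 0.46 with all arrays and at -0.12 without E81 SRFdM-VP16 replicate 1. Between the -/- lines and wild type limma called 0 of 8 (0.083%), and 2 had an unadjusted p under 0.05, both higher in the -/- lines: Nr5a2 (0.71 ± 0.24, adjusted p = 0.588) and Klf4 (0.77 ± 0.28, adjusted p = 0.636). Of all 9643 probe sets, 446 were higher and 163 lower at that unadjusted p. Without the wild-type control arrays numbered 2, Nr5a2 was at 0.32 and Klf4 at 0.61. Between E99 and wild type it called 0 of 8 (0.0726%), with 0 at an unadjusted p under 0.05. SRFdM-VP16 against vector over all lines gave 0 of 8 (0.799%) and again 0 at an unadjusted p under 0.05, with changes from -0.65 (Esrrb) to 0.11 (Klf2) that did not pass.

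Each gene but Esrrb can be ordered over the 12 groups by its mean intensity. Klf2, Nr5a2, Fgf4, Zfp42 and Pou5f1 were lowest in E100 with SRF-VP16, Utf1 in E81 with SRF-VP16, and Klf4 in wild type with SRF-VP16. Esrrb, near background, was not ordered. Klf2 was brightest in E99 with SRF-VP16 (4587 ± 550), where its arrays overlapped those of every control group of E99, E81 and E100 except the single vector array of E100 at 3573. Its lowest groups were wild type with SRF-VP16 (1466 ± 344, 32.0% of the brightest group), E81 with SRF-VP16 (916 ± 460, 20.0%) and E100 with SRF-VP16 (727 ± 403, 15.8%), and the arrays of the last pair overlapped. Pou5f1 kept 42.2% of its brightest group in E100 with SRF-VP16, Fgf4 32.6%, Zfp42 30.8% and Nr5a2 29.6%. The order of Utf1 had the least spread, from 50.9% to 100%, with duplicates as far apart as 4388 and 9958.

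Markers of other cell types were read beside the members. In the -/- lines 2.48% of all probe sets were called higher with SRF-VP16 and 0.342% lower. In the -/- lines with SRF-VP16, 4 of 7 smooth-muscle markers that passed the filter were called higher and 0 lower, with a summed intensity of 52975 to 71390 against 3695 to 8942 with SRFdM-VP16; Tagln rose by 7.61 ± 1.00 on the log2 scale (adjusted p = 0.000928 by limma). Acta2 was below 0 on all 4 SRFdM-VP16 arrays (-409 to -56) and, set against the floor, was at least 193-fold higher (adjusted p = 0.00880 by limma). Tagln and Acta2 are SRF targets as well as muscle markers. Of 11 trophoblast markers 5 were called higher and 0 lower, with sums of 12004 to 27702 against 1149 to 6005. The keratin Krt8 rose by 3.61 ± 0.57. The keratin Krt7 and the factor Gata3 were at or under the floor on all 4 SRFdM-VP16 arrays and were at least 19.8-fold and 6.83-fold higher against it, while Elf5 stayed at or under the floor on every array. Of 13 primitive endoderm markers 2 were called higher, the basement-membrane collagens Col4a1 (2.68 ± 0.55) and Col4a2 (1.86 ± 0.45), and Ttr was at or under the floor throughout. Among 7 neurectoderm, 8 mesoderm and 11 fibroblast markers 1 each was called higher (Nes, Gata2 and Timp1), and 0 in any of these lists were called lower. In wild type the trophoblast sums spanned 2406.5 to 18582 with vector and 2462 to 17260 with SRFdM-VP16. With SRF-VP16 they were 13752 to 24096, so the control arrays reached into that range. The part of cells of other types in the falls of the members was not tested.

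Tagln was high on the arrays where Klf2 was low, and E99 was the exception. In E99 with SRF-VP16, Tagln read 6899 and 5651 while Klf2 was at 4976 and 4198. In wild type with SRF-VP16 Tagln read 16237 and 5805 with Klf2 at 1223 and 1709. The highest Tagln values, 23513 to 34217, were those of the -/- arrays with SRF-VP16, where Klf2 read 442 to 1241. The order was not strict among them: Tagln at 34217 went with Klf2 at 1012, and Tagln at 29157 with Klf2 at 442. The wild-type control arrays numbered 2, which received no SRF-VP16 by their labels, had Tagln at 9417 and 11738 and Klf2 at 1835 and 1734.

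**Figure D4:**
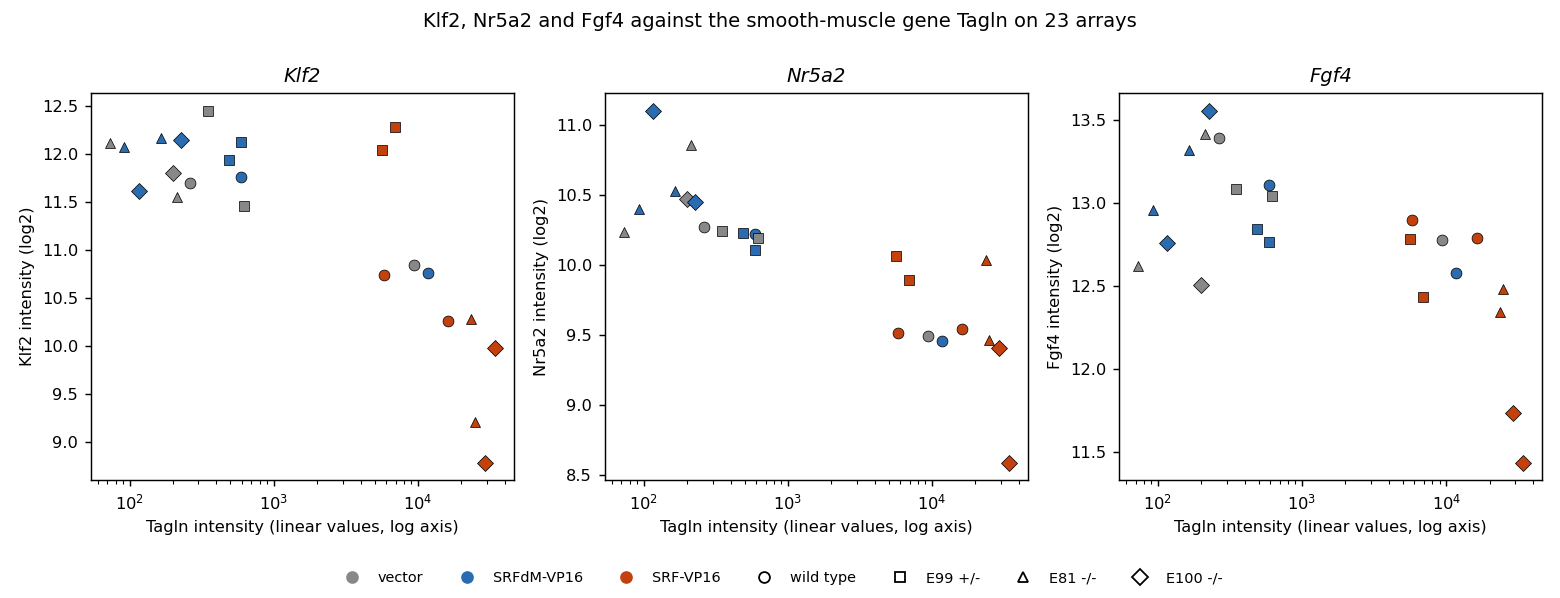
Log2 intensity of Klf2, Nr5a2 and Fgf4 against Tagln intensity (log axis) on each of 23 arrays; colours are plasmids and shapes are lines. A grey and a blue circle, the wild-type control arrays numbered 2, lie among the SRF-VP16 arrays, and the red squares of E99 keep Klf2 at 4198 and 4976 with Tagln at 5651 and 6899.

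The wider pluripotency network was examined with a list of other genes. Of 47 measured in the -/- lines, 1 was called lower and 2 higher, against 0.342% and 2.48% of all probe sets. The change was negative for 31 of 47, with a median of -0.37 against 0.04 over all probe sets. Mybl2, a cell-cycle factor expressed highly in ES cells, fell by 0.89 ± 0.20 on the log2 scale (adjusted p = 0.0250 by limma), and the polycomb gene Phc1 gave -0.93 ± 0.25 (adjusted p = 0.0664). The 2 that rose were Cdh1, which encodes E-cadherin (1.43 ± 0.22, adjusted p = 0.00254), and the chromatin protein gene Hmga2 (1.81 ± 0.38, adjusted p = 0.0183). Sox2 (-0.49 ± 0.24, adjusted p = 0.412) and Nanog (-0.18 ± 0.38, adjusted p = 0.922), named after their values were seen as the usual partners of Pou5f1, did not pass. In E100 1 of 47 was called lower and 0 higher (0.425% and 0.757% of all probe sets), with a median of -0.84 against -0.14 over all probe sets. In E81 0 were called lower and 1 higher (0.0622% and 0.944%), with a median of 0.14 against 0.25 over all probe sets.

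Signalling genes of the LIF, BMP and FGF pathways gave 1 called higher and 0 lower of 18 in the -/- lines, against 2.48% and 0.342% of all probe sets. The riser was Fgfr2, a receptor for FGF ligands (1.70 ± 0.35, adjusted p = 0.0165 by limma). Lifr, the LIF receptor, gave -1.12 ± 0.33 (adjusted p = 0.108). Among 8 genes of primed pluripotency and exit from the naive state limma called 0, with Sox3 nearest (1.09 ± 0.50, adjusted p = 0.360), and Fgf5 was at or under the floor on every array. Of the 9 ES cell markers 1, Fgf4, was called lower (0.342% of all probe sets). That list shares Pou5f1, Zfp42, Utf1 and Fgf4 with the members, so the call is the one given above. Its other genes are Sox2, Alpl, Cd9, Nr0b1 and Tdgf1.

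The members did not move as a block between duplicate arrays. Klf4 and Zfp42 ran together (Pearson r = 0.794, Spearman rho = 0.853 over 23 arrays, 0.760 without the 2 arrays farthest from the Klf4 median), and went the same way in 9 of 11 duplicate pairs. Klf4 and Utf1 went opposite ways in 8 of 11 pairs, as did Zfp42 and Utf1. Of all pairs of members, Klf4 with Zfp42 had the highest r over the 23 arrays and Klf4 with Utf1 the lowest (-0.175). They are thus extremes picked from the full set. Pou5f1 and Esrrb also went the same way in 9 pairs, at r = 0.142 and with Esrrb near background. In E81 with SRFdM-VP16, for example, Klf4 read 3808 and 8720, Zfp42 3277 and 16173, and Utf1 10842 and 5252. Klf2 and Nr5a2, both called lower, went the same way in 5 of 11 pairs, although r over the 23 arrays was 0.686 (rho = 0.618). Over the 15 arrays with vector or SRFdM-VP16 it was 0.509, and -0.37 without the 2 arrays farthest from the Klf2 median. These are descriptions over arrays that share lines and RNA quality.

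**Figure D5:**
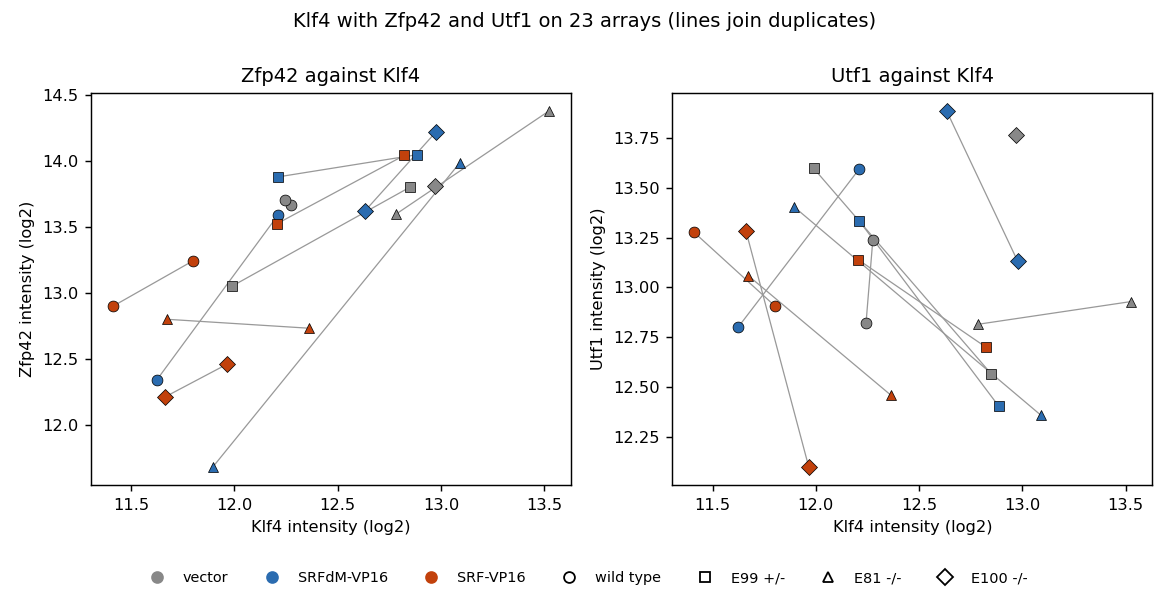
Log2 intensity of Zfp42 (left) and Utf1 (right) against Klf4 on each of 23 arrays; colours are plasmids, shapes are lines and thin lines join duplicates. Most joined pairs slope upward for Zfp42 (9 of 11) and downward for Utf1 (8 of 11). The panels show the pairs of members with the highest and the lowest r over the 23 arrays.

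The named genes whose log2 intensity followed each member most closely over the 23 arrays were Yipf4 for Klf2 (Pearson r = 0.826), Lifr for Nr5a2 (0.883), Cnpy2 for Fgf4 (0.890), Aldh2 for Pou5f1 (0.923), Nr0b1 for Zfp42 (0.918), Zfp638 for Klf4 (0.898), Acaa2 for Utf1 (0.945) and Snhg11 for Esrrb (0.763). The next were Socs2 and Zfp982 for Klf2, Irf9 and G3bp1 for Nr5a2, Gsta4 and Dppa4 for Fgf4, Mcm7 and Prmt1 for Pou5f1, Wtap and Orc5 for Zfp42, Smc4 and Zfp97 for Klf4, Polr2j and Psmb3 for Utf1, and Mrpl48 and Myef2 for Esrrb. Nr0b1, a nuclear receptor gene, and Dppa4 are themselves on the list of wider network genes. All of these were picked as the highest r among all named probe sets that passed the filter. The arrays share lines, plasmids and RNA quality, so the values are descriptions and a link between the genes was not tested.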

How the data were processed

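The data are oligonucleotide array measurements of total RNA from ES cells. Per the labels each array is 1 sample, and its deposited values are linear intensities, 1 per probe set. Not given in the sources used here: the software, any background subtraction and any scaling by the authors. Probe sets brighter than 10000 differed from the median array by factors of only 0.932 to 1.05, so the intensities were used as deposited. The 66 control probe sets of 12502 were left out, and 9643 probe sets above the 40th percentile of their array in at least 2 arrays were kept. Values below the 40th percentile of all values, 58, were set to it (39.9% of values), then put on the log2 scale.

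A limma model (3.58.1, R 4.3.3) fitted 1 mean to each group, with variances moderated along an intensity trend (11 residual degrees of freedom), two-sided tests and Benjamini-Hochberg adjustment at 5%. Figures and promoter searches used Python 3.11.15 and matplotlib 3.10.9. A gene was given by its probe set with the highest mean. From each list, up to 4 genes with the smallest adjusted p in the -/- comparison could be named, and for each member the 3 genes most correlated with it. Members, lists, comparisons and alternatives were chosen with earlier results of these data known. Gene symbols came from the platform annotation. The procedure was tested on simulated data. Srf and Zyx were not analysed here.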

Additional observations from a re-analysis of the deposited data

Results flagged for a closer look

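For each of 9 member probe sets, the highest or lowest array was set against the rest of its group in groups of 4 to 10 arrays, and 7 of 81 combinations held an array whose gap to its nearest neighbour was too large a share of the range; chance alone flags about 1 in 20. Among the -/- arrays with SRFdM-VP16, the brighter Nr5a2 probe set read 2196 in E100 replicate 1, where the nearest array read 1472. Among the -/- arrays with SRF-VP16, the dimmer Nr5a2 probe set read -38.0 in E81 replicate 2. Among the wild-type control arrays, SRFdM-VP16 replicate 2 was low for Klf4 (3156, nearest 4737) and Zfp42 (5176, nearest 12291). Among the vector arrays of all lines, Pou5f1 read 27732 in E100, the single vector array of that line. Esrrb, near background throughout, read -145 in E81 SRFdM-VP16 replicate 1 among the -/- control arrays, and 212 in E99 vector replicate 1 among the E99 control arrays.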

How the results depend on the processing

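Each result was recomputed under every alternative, and 0 of 298 values of called members changed sign, while 241 kept the call. Of 3510 values of members not called, 174 changed sign. Both counts include alternatives that left out an array outside the comparison or changed only the filter or the intensity trend. Those cannot move the change of a gene above the floor, so its sign was fixed there. In the -/- lines 3 members were called, 1 with vector as the control and 0 with only the arrays of the comparison, which leaves fewer degrees of freedom; leaving out 1 array gave 2 to 4. In E81 1 was called, and 0 with a floor at the 60th percentile, no filter, only its own arrays, vector as the control, the replicate block, or without E81 SRFdM-VP16 replicate 1 and both wild-type control arrays numbered 2 (added after seeing the data); leaving out 1 array gave 0 to 1. In E100 3 were called, and 0 with division of each array by its median, only its own arrays or vector as the control; leaving out 1 array gave 0 to 3. With quantile normalization 3 were called there too, but Pou5f1 in place of Klf2, and without E81 SRFdM-VP16 replicate 1 the 3 in the -/- lines held Zfp42 in place of Nr5a2. Over all lines 1 was called, 3 with quantile normalization, the mean of both control plasmids or without the wild-type control arrays numbered 2, 4 with division by the median, and 2 with a filter at the 60th percentile, the replicate block within lines, or the 3 arrays left out; leaving out 1 array gave 1 to 3. For E100 minus E81 0 were called, and 0 to 1 without 1 array. Except where construction is named, the cause was not tested.

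The labels do not say that replicate numbers pair samples, and same-numbered arrays of a line did not deviate together throughout (correlations of duplicate differences from -0.35 to 0.42 over 10 pairs of groups). The value was highest, 0.42, between vector and SRFdM-VP16 of wild type, lay between 0.26 and 0.31 in E81, and was below 0 in 4 pairs of wild type and E99 that include SRF-VP16. The replicate block changed no other count of members called past 1.5 times. Group size and background limit the results for dim genes, Esrrb above all.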
